A study of Mus musculus with 6 samples.

Results

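The transcripts of normal mouse retina were described from 3 arrays, 1 for each wild-type sample of a series of 6 arrays, the other 3 being from Vldlr knockout mice. The 3 were chosen by their source name, Jax WT, and no value of the knockout arrays is given here. Their labels give wild-type genotype, retina as the tissue and JAX as background strain, and name no strain beyond that, no age, no sex and no treatment. Total RNA was taken from isolated retinas, and nothing in the labels says whether each sample came from 1 animal, so the spread between arrays given below may be technical or biological. Replicate numbers only name the arrays.

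The retina turns light into nerve signals. In rods and cones, an opsin activates the G protein transducin, transducin releases the brake on a phosphodiesterase, the phosphodiesterase breaks down cyclic GMP, and channels held open by cyclic GMP close. Bipolar cells carry the signal inwards, horizontal and amacrine cells shape it, and ganglion cells send it to the brain along the optic nerve, while Müller glia span the tissue and support all of them. Rods outnumber every other cell type of the mouse retina. In whole-tissue RNA, more cells of a type and more RNA per cell cannot be told apart.

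Many photoreceptor genes are controlled by CRX, a homeodomain factor that binds TAATCC, often beside NRL, which binds sites with TGCTGA at their core. The RefSeq table of promoters (GRCm38.p6) held 13 of the 18 rod phototransduction genes of the array, and its 250 bases before the start were searched for both motifs on either strand. TAATCC was found before 7 of 13 rod genes, which is 53.8% (exact 95% interval 25.1% to 80.8%), while 2054 of 32851 promoters of all genes (6.25%) and 6.36% of the promoters of the 100 brightest genes held it. In the other photoreceptor lists it was in 1 of 7 promoters of cone genes, 4 of 17 of outer segment genes and 3 of 16 of transcription factor genes. The rod share rests on both strands, since 23.1% held the motif on the forward strand alone. TGCTGA was in 23.1% of rod promoters and 16.1% of all promoters, and TATAAA, searched in the same way, in 23.1% and 12.4%. No match of TAATCC overlapped one of TGCTGA in the 4 photoreceptor lists, and a match is a run of letters, not a shown binding site. Matches before Cnga1 (228 to 223 bases before the start) and Otx2 (211 to 206) lay farther away than the stretch printed here. The 120 bases before the start are printed for 5 genes described below, with TAATCC or its reverse complement GGATTA in capitals. Only genes with a match within those bases could be printed, so nearness to the start was fixed by that choice.
Sag (chr1:87803560-87803679, plus strand): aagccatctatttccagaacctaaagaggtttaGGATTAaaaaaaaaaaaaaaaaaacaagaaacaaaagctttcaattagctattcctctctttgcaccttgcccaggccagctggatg
Cngb1 (chr8:95306586-95306705, minus strand): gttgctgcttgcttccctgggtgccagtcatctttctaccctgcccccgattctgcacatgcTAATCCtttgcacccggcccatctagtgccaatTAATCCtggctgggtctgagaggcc
Guca1a (chr17:47400607-47400726, minus strand): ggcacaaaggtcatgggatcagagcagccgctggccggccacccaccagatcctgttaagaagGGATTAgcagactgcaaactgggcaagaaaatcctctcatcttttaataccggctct
Gnat2 (chr3:108092946-108093065, plus strand): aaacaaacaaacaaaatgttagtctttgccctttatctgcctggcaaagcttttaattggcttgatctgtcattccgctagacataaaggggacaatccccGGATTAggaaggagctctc
Crx (chr7:15879956-15880075, minus strand): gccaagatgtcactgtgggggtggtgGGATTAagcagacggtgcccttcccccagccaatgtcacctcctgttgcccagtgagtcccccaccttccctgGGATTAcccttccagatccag
Sag, Cngb1 and Guca1a belong to the rod cascade, Gnat2 is the cone transducin, and Crx is the factor itself. In the cone transducin promoter the motif ended 14 bases before the start, and in Cngb1 and Crx it occurred 2 times each within the printed stretch. The motif was also present before Gucy2f, which was detected on 0 arrays, and before Gngt1 and Gucy2e, which were detected on 1 array each.

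Each array carried 45281 probes, and 18710, 19196 and 20974 of them (41.3%, 42.4% and 46.3%) had a detection p under 0.05 in replicates 1, 2 and 3. Median raw signal was 75.9, 75.7 and 66.9 units. Across all probes, which are not independent replicates, replicates 1 and 2 correlated at Pearson r = 0.988, replicates 1 and 3 at 0.978 and replicates 2 and 3 at 0.977. Replicate 3 was therefore the array that stood a little apart, with the most detected probes and the lowest median.

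Of 19057 genes with a probe that names them alone, 9876 (51.8%) had at least 1 probe detected on all 3 arrays, 903 on 2, 1537 on 1, and 6741 (35.4%) on 0. A gene counts as detected below when 1 of its probes passed on all 3 arrays, and that share of 51.8% is the background for each list. Detection depended on the number of probes: 38.5% of genes with 1 probe passed, and 66.1% of those with several. Of 9172 genes with several probes, 3175 (34.6%) had 1 probe on all 3 arrays and another on 0. A probe that stayed at background therefore says nothing firm about the transcript. Levels are log2 signal after background correction and normalization, read from the probe with the highest mean. The rank on an array is the place of that probe's raw signal among the 19057 genes, 1 being the brightest. Median ranks of lists use the rank of the mean log2 level over the 3 arrays. So do the sets of brightest genes where no array is named. Because probes bind with different strength, a rank orders probe brightness and not transcript abundance.

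**Figure D1:**
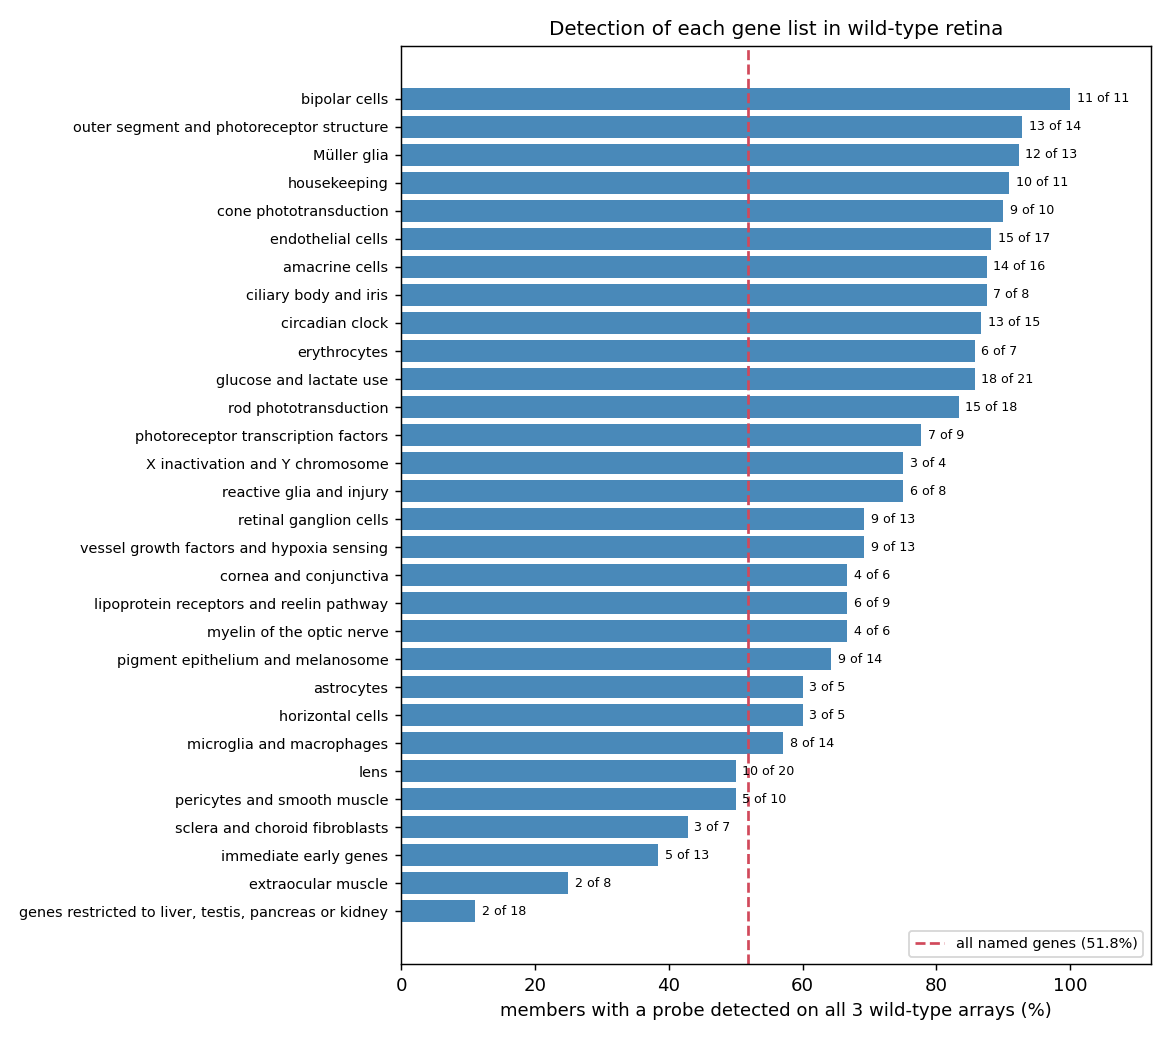
Share of the members of each of 30 gene lists with a probe detected on all 3 wild-type arrays, in percent, with the counts beside the bars and the share over all named genes (51.8%) as a dashed line. Bipolar, outer segment and Müller glia lists reach over 90%, and the list of genes restricted to liver, testis, pancreas or kidney reaches 11.1%.

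The brightest gene on every array was Gnat1, the alpha subunit of rod transducin. Its raw signal was 29674.1, 30955.6 and 32366.6 units in replicates 1, 2 and 3. Ckb, the brain-type creatine kinase, ranked 2nd and Rplp1, a ribosomal stalk protein, ranked 3rd on all 3 arrays. Their log2 levels of 14.94, 14.84 and 14.74 were identical across arrays, because normalization gives probes of the same rank the same value, so an SD of 0 is no measure of their precision. The other genes among the 12 brightest were Eef1a1 (translation elongation), Atp5b (ATP synthase), Tuba1b and Tubb5 (tubulins), Wbp2, Rpl9 and Rps29 (ribosomal proteins), Pde6g (the inhibitory subunit of the rod phosphodiesterase) and Cdhr1 (a cadherin of the photoreceptor outer segment). Tubulin and ribosomal protein genes have close paralogs or processed copies, and their probes may read more than 1 of them.

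Among the 100 brightest genes, 12 encoded cytosolic ribosomal proteins, 9 subunits of the respiratory chain or ATP synthase, 3 tubulins, and 7 belonged to the photoreceptor lists. Those 7 were Gnat1, Pde6g, Cdhr1, Pde6b, Opn1mw, Gnb1 and Crx. Over all named genes, the photoreceptor lists make up 0.268%, cytosolic ribosomal proteins 0.367%, the respiratory chain and ATP synthase 0.535%, and tubulins 0.0787%. Brightness at the top was shared between arrays: 75 genes were among the 100 brightest on all 3, and 128 on at least 1. The 100 brightest probes held between 12.4% and 13.4% of the background-subtracted signal of an array.

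The rod cascade was bright almost throughout. Of 18 rod phototransduction genes with a probe, 15 were detected, 10 were among the 1000 brightest genes, and the median rank was 508.5. The catalytic subunits of the rod phosphodiesterase, Pde6b and Pde6a, stood at 13.53 ± 0.0175 and 12.78 ± 0.215 (SD, n = 3, as for all log2 levels below), and the inhibitory Pde6g at 14.03 ± 0.0847. Pde6b had 13.51, 13.54 and 13.54 in replicates 1, 2 and 3 and ranked 36, 35 and 35. The phosphodiesterase values of the arrays lay within 0.43 of each other for all of its 3 rod subunits.

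The beta subunit of rod transducin, Gnb1, averaged 13.1 ± 0.191, while its partner Gngt1 stayed near background at 4.82 ± 0.228 and was detected on 1 array. Of the cyclic GMP-gated channel, Cngb1 had 12.5, 12.57 and 12.61 and Cnga1 had 9.82, 9.67 and 10.49. The exchanger Slc24a1, which carries calcium out of the outer segment, averaged 10.68 ± 0.204. Both channel subunits were thus detected on every array, with replicate 3 highest for each on its brightest probe. The other Cngb1 probe had 11.12, 10.91 and 10.83, lowest in replicate 3.

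The genes that end the light response were also detected. Arrestin (Sag), which silences the active photopigment, had 12.88, 12.66 and 12.44. Pdc, which binds transducin subunits, had 12.36, 11.62 and 11.99, and Rcvrn, the calcium sensor recoverin, had 11.33, 11.43 and 12.28. Grk1, a kinase of photoreceptors, had 7.67, 7.56 and 8.62. It was the 1 rod gene whose arrays differed by at least 1 log2 unit on the brightest probe. Rgs9, which speeds the switching off of transducin, averaged 7.61 ± 0.461. The activators of guanylate cyclase, Guca1b and Guca1a, averaged 11.6 ± 0.259 and 9.9 ± 0.246, but the cyclases did not stand clear of background: Gucy2e averaged 4.77 ± 0.417 and was detected on 1 array, and Gucy2f averaged 4.18 ± 0.0158 and was detected on 0. Rcvrn and Grk1 were highest in replicate 3. Sag was lowest there on its brightest probe, but its other probe had 11.08, 10.96 and 12.38, highest there, with a range of 1.41.

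**Figure D2:**
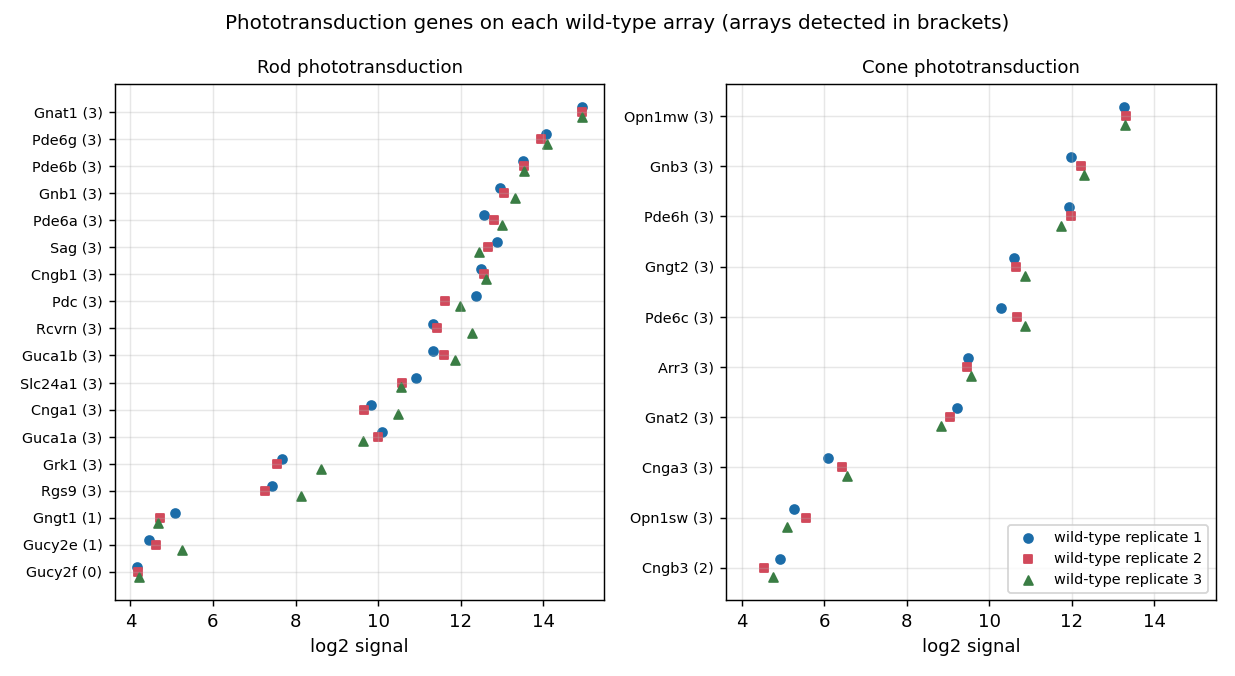
Log2 signal of each rod and cone phototransduction gene on the 3 wild-type arrays, with the number of arrays that detected it in brackets; each point is 1 array. Most genes lie within 1 log2 unit across arrays, and Gngt1, Gucy2e, Gucy2f and Cngb3 lie near background.

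Of the 10 cone phototransduction genes, 9 were detected, with a median rank of 1870. The medium-wavelength opsin Opn1mw had 13.27, 13.31 and 13.28 and ranked 59, 52 and 60. The short-wavelength opsin Opn1sw had 5.27, 5.56 and 5.1 and was detected on all 3 arrays at ranks near the middle of the genes (9453, 8942 and 9627). Each opsin was read by its own probe, so the gap between them is a gap in probe signal. The cone phosphodiesterase subunits Pde6h and Pde6c averaged 11.89 ± 0.129 and 10.6 ± 0.29. The cone transducin subunits Gnb3, Gngt2 and Gnat2 averaged 12.16 ± 0.168, 10.7 ± 0.146 and 9.03 ± 0.185. Arr3, the cone arrestin, averaged 9.5 ± 0.0443. Of the cone channel, Cnga3 averaged 6.36 ± 0.252, and Cngb3 averaged 4.74 ± 0.197 and passed on 2 arrays. None of the cone genes had arrays that differed by 1 log2 unit.

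Structural genes of the outer segment were detected for 13 of 14 members, with a median rank of 877.5. Cdhr1 had 13.92, 14.12 and 13.9, and the disc rim proteins Prph2 and Rom1 averaged 12.68 ± 0.156 and 12.22 ± 0.0831. Tulp1 averaged 12.36 ± 0.0972, Unc119, which binds lipid-modified transducin, 11.93 ± 0.267, and Aipl1, a chaperone of the phosphodiesterase, 11.82 ± 0.26. Rp1, a microtubule protein of the outer segment, was detected on 1 array. The arrays differed most for Impg1, a proteoglycan of the matrix around photoreceptors, and for Rpgrip1, a protein of the connecting cilium. Impg1 had 7.62, 6.1 and 7.99 and was lowest in replicate 2. Rpgrip1 had 8.59, 8.52 and 10.27 on its brightest probe, highest in replicate 3, and 7.17, 7.15 and 6.67 on its next, lowest there. A further Rpgrip1 probe detected on all 3 arrays had 6.52, 6.33 and 7.68, again highest in replicate 3.

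Of 9 photoreceptor transcription factors, 7 were detected. Crx averaged 12.97 ± 0.144, Esrrb 12.83 ± 0.303, Nrl, which sets rod fate, 12.39 ± 0.197, Otx2 11.75 ± 0.0849, Rorb 10.51 ± 0.127 and Neurod1 6.74 ± 0.303. Thrb, the thyroid hormone receptor that sets the medium-wavelength cone type, was detected on 0 arrays by its only probe. Mef2d was detected on 1.

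**Figure D3:**
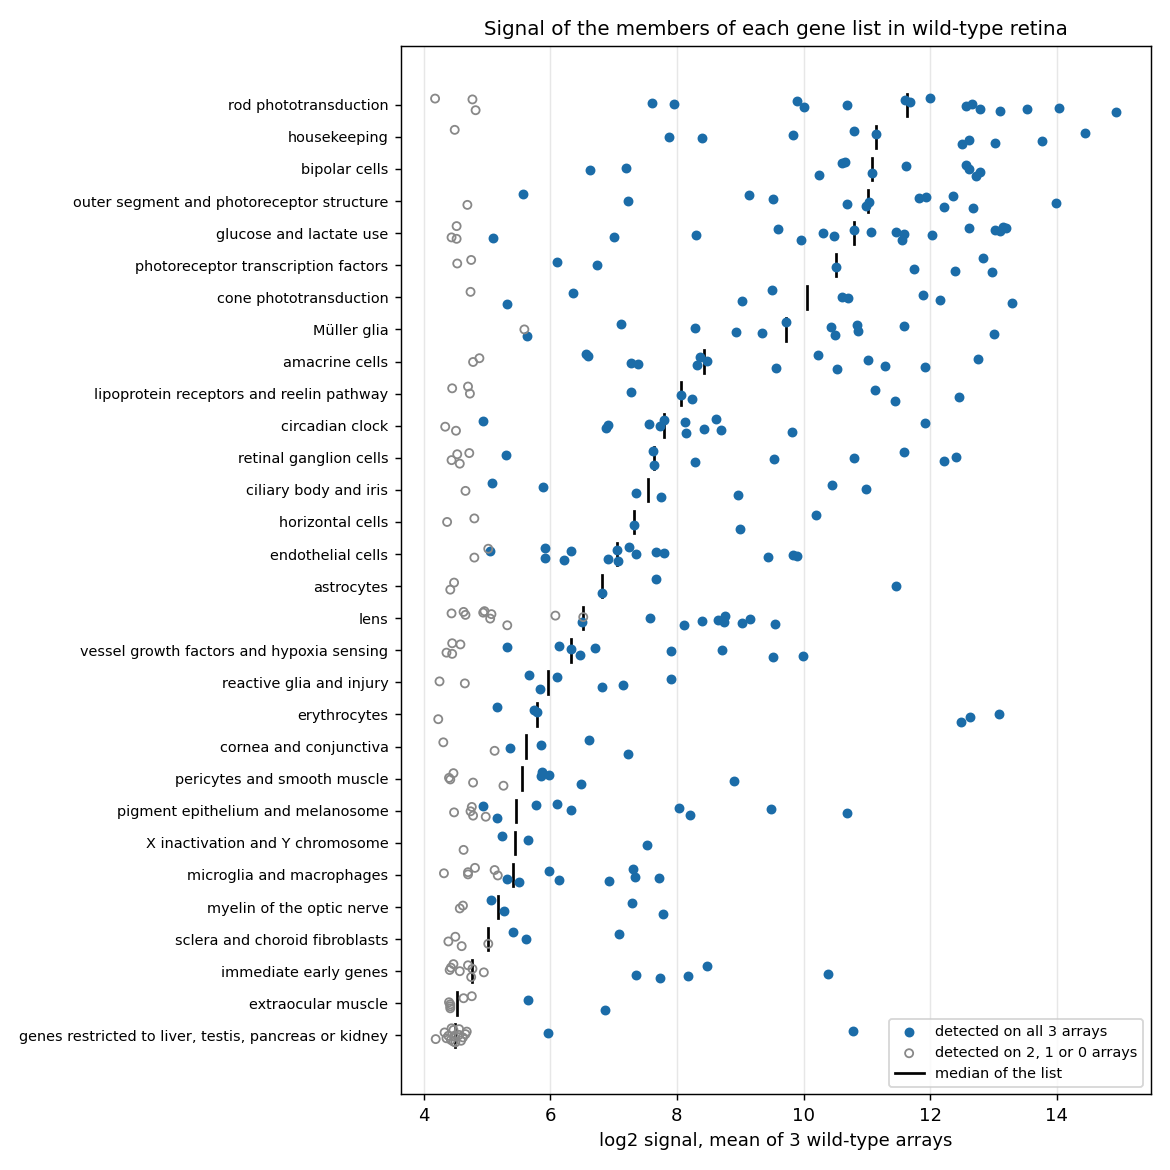
Mean log2 signal over the 3 wild-type arrays of every gene in the 30 lists, ordered by median rank; filled points were detected on all 3 arrays, open points on fewer, and bars are list medians. Rod genes lie at the top with a median of 11.64, and genes restricted to liver, testis, pancreas or kidney at the bottom, nearly all open and between 4 and 5.

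All 11 bipolar cell genes with a probe were detected, with a median rank of 827. Prkca, the kinase that marks rod bipolar cells, had 12.96, 12.82 and 12.59, and Grm6, the glutamate receptor of ON bipolar cells, had 12.67, 12.82 and 12.68. Isl1 averaged 12.61 ± 0.0618 and Gng13, a G protein subunit of ON bipolar cells, 12.57 ± 0.063. Gnao1, the G protein that Grm6 activates, had 11.06, 11.48 and 12.31 and was highest in replicate 3. Pcp2 averaged 11.08 ± 0.321 and the channel Trpm1 10.24 ± 0.205. Vsx1 had 7.04, 7.09 and 5.74 on its brightest probe, lowest in replicate 3, but 5.64, 5.21 and 6.04 on its other probe, highest there. Of the 11 genes, Gnao1 and Vsx1 were those with a difference of at least 1 between arrays.

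Amacrine cell genes were detected for 14 of 16. Calb2, the calcium-binding protein calretinin, averaged 12.75 ± 0.0986, the vesicular inhibitory transporter Slc32a1 11.91 ± 0.154, the glycine transporter Slc6a9 11.29 ± 0.12, Tfap2b 11.02 ± 0.234, the GABA-making enzyme Gad1 10.53 ± 0.226 and neuropeptide Npy 10.23 ± 0.259. The genes of cholinergic (starburst) amacrine cells were dimmer, with Chat at 7.85, 8.07 and 9.02, Slc18a3 at 6.75, 7.56 and 7.88, and Slc5a7 at 7.48, 7.2 and 7.17. Chat and Slc18a3 were highest in replicate 3, and Slc5a7, of the same cells, was not. Th, the enzyme of dopaminergic amacrine cells, was detected on 1 array, and Pax6 on 2.

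Ganglion cell genes were detected for 9 of 13. Thy1 averaged 12.4 ± 0.421, the glutamate transporter Slc17a6 12.22 ± 0.0474, Stmn2 11.59 ± 0.104, Sncg 10.79 ± 0.0948, the neurofilament Nefm 9.53 ± 0.0775 and Rbpms 8.28 ± 0.222. Pou4f1 averaged 7.63 ± 0.128. Pou4f3, Nefl and Eomes were detected on 0 arrays, and Opn4, which marks light-sensitive ganglion cells, on 1. For the neurofilaments, 1 gene was thus well above background and its partner Nefl, with 1 probe, was not. Horizontal cell genes were detected for 3 of 5: Prox1 averaged 10.19 ± 0.236, Lhx1 8.99 ± 0.309 and Onecut2 7.32 ± 0.411, while Calb1, a usual marker of these cells, was detected on 0 arrays by its only probe.

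Müller glia genes were detected for 12 of 13, with a median rank of 2205. Slc1a3, which clears glutamate, had 13.49, 12.98 and 12.55. Dkk3 averaged 11.59 ± 0.0167, Sox9 10.86 ± 0.246, Car14 10.85 ± 0.221, the retinaldehyde-binding protein Rlbp1 10.5 ± 0.263 and Apoe 10.43 ± 0.076. Glutamine synthetase (Glul), a textbook marker of these cells, was dim on its only probe, with 6.31, 5.5 and 5.07 and ranks of 7578, 9072 and 9713. The water channel Aqp4 had 8.76, 8.89 and 10.35 and was highest in replicate 3. Slc1a3 and Glul, by contrast, were lowest in replicate 3, so that the glial markers did not move together between arrays. Gfap, the astrocyte filament that Müller glia make under stress, had 6.7, 6.6 and 7.12. Of the 5 astrocyte genes, Aldoc (11.46 ± 0.0329), Pdgfra (7.67 ± 0.157) and Gfap were detected, and Pax2 and S100b were detected on 0 arrays.

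Markers of microglia and macrophages were dim. Of 14, 8 were detected, close to the background share of 51.8%, and the median rank was 9099. The brightest were the complement genes C1qb (7.71 ± 0.189) and C1qc (7.34 ± 0.355), Fcer1g (7.31 ± 0.355), Cx3cr1 (6.92 ± 0.517), Csf1r (6.14 ± 0.158) and Trem2 (5.98 ± 0.11). P2ry12 and Itgam were detected on 0 arrays. Cx3cr1 had 6.91, 7.44 and 6.41. The list was lowest in replicate 3 for 10 of its 14 genes, where 44.1% of all named genes were lowest, but its median there differed from the other arrays by only -0.16, and the difference turned to 0.16 with the authors' subtracted values.

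Endothelial genes were detected for 15 of 17. The tight junction gene Cldn5 averaged 9.9 ± 0.46, Esam 9.83 ± 0.331, the VEGF receptor Flt1 9.44 ± 0.193, Vwf 7.8 ± 0.373, Nos3 7.67 ± 0.128 and Emcn 7.35 ± 0.0652. The other VEGF receptor, Kdr, was detected on 1 array. Pericyte and smooth muscle genes were detected for 5 of 10, near the background share: Acta2 averaged 8.9 ± 0.367, Rgs5, a pericyte marker, had 6.28, 5.73 and 7.45, and Abcc9, Notch3 and Kcnj8 averaged between 5.85 and 5.98. Tagln, Myh11 and Anpep were detected on 0 arrays.

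Vldlr, the receptor gene that the series was built around, was well above background in wild-type retina. Its brightest probe had 11.31, 11.33 and 11.68 and ranked 714, 703 and 484. Further probes averaged 10.91 ± 0.259 and 10.57 ± 0.363 and were detected on all 3 arrays. The remaining probes were dim, at 5.37 ± 0.745 (2 arrays), 5.18 ± 0.852 (1 array) and 4.44 ± 0.0588 (0 arrays). The 3 bright probes were each highest in replicate 3. Of the genes of lipoprotein uptake and reelin signalling, 6 of 9 were detected. The ligand Reln averaged 12.45 ± 0.0653, lipoprotein lipase Lpl 11.13 ± 0.177, Lrp8, the other reelin receptor, 8.23 ± 0.226, the adaptor Dab1 8.07 ± 0.108 and Lrp2 7.28 ± 0.287. The fatty acid transporter Cd36 and the fatty acid receptor Ffar1 were detected on 0 arrays.

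Genes of glucose and lactate use were detected for 18 of 21, with a median rank of 1051. Pkm averaged 13.19 ± 0.294, lactate dehydrogenase Ldha 13.15 ± 0.279, Tpi1 13.1 ± 0.15, Gapdh 13.03 ± 0.146, Eno2 12.61 ± 0.198 and Pfkl 12.03 ± 0.0964. Glucose transporter Slc2a1 had 11.63, 11.6 and 11.41. Replicate 3 was highest for 14 of the 21 genes, and for 28.2% of all named genes. Hexokinase Hk1 had 7.46, 8.36 and 9.06, and Bsg, a chaperone of lactate transporters, had 10.31, 9.8 and 11.34, the 2 genes of this list with a difference of at least 1. The lactate transporters Slc16a1 and Slc16a7 and the dehydrogenase subunit Ldhb were detected on 0 arrays by 1 probe each.

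Genes of vessel growth and oxygen sensing were detected for 9 of 13. Vegfb averaged 9.99 ± 0.315, Vegfa 9.52 ± 0.399, Angpt2 7.91 ± 0.339, and Egln1, an oxygen sensor, 6.71 ± 0.516. Vegfa had 9.84, 9.64 and 9.07. The hypoxia-inducible factors varied widely: Hif1a had 8.86, 7.17 and 10.09, and Epas1 had 6.26, 5.34 and 7.36, both lowest in replicate 2 and highest in replicate 3. The other probes of Hif1a and of Epas1 were detected on 0 arrays, so the spread of each gene rests on 1 probe. Pgf, Angpt1, Adm and Epo were detected on 0 arrays. Of 8 genes of reactive glia and injury, 6 were detected, at low to middle levels: Stat3 averaged 7.9 ± 0.133, Lcn2 7.15 ± 0.175, Osmr 6.1 ± 0.403, Serpina3n 5.84 ± 0.599 and Cebpd 5.67 ± 0.541. Fgf2 was detected on 0 arrays and Edn2 on 1.

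Immediate early genes, which respond within minutes to light, handling or injury, were detected for 5 of 13. Egr1 averaged 10.38 ± 0.211, Dusp1 8.48 ± 0.329, Jun 8.18 ± 0.611, Fos 7.73 ± 0.283 and Junb 7.36 ± 0.603. Jun had 8.44, 8.62 and 7.48, lowest in replicate 3, and Junb had 6.75, 7.4 and 7.95, highest there, so that they did not move together. Ier2, Nr4a1, Btg2, Atf3 and Npas4 were detected on 0 arrays. Clock genes were detected for 13 of 15: Dbp, an output gene, averaged 11.91 ± 0.224, Clock 9.82 ± 0.245, Per1 8.69 ± 0.459, Noct 8.62 ± 0.125, Per2 8.42 ± 0.215 and Arntl 8.15 ± 0.154. Per3 had 6.97, 6.06 and 7.62, and Npas2 and Cry1 were detected on 0 arrays.

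Y-linked transcripts were detected on all 3 arrays. Eif2s3y had 7.52, 7.48 and 7.56, Kdm5d 5.58, 5.74 and 5.63, and Uty 5.37, 5.55 and 4.78. Xist, the RNA of the inactive X chromosome, had 4.41, 4.97 and 4.5 on its brightest probe, which was detected on 1 array, and its other 3 probes were detected on 0. Of 11 housekeeping genes, 10 were detected, and Sdha was detected on 0 arrays by its only probe. Actb was the 1 gene of this list with a difference of at least 1 on the brightest probe. Actb differed between arrays on each of its 5 probes, by 0.98 to 2.95, and the probes did not place the same array highest: its brightest probe had 11.74, 13.26 and 12.49, while its next had 12.13, 12.1 and 13.08.

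Genes listed as restricted to liver, testis, pancreas or kidney were mostly near background on these arrays. Of 18, 2 were detected, 15 were detected on 0 arrays, and the median rank was 14590. The 2 were Amy2a5, at 10.78 ± 0.232, and Cela1, at 5.96 ± 0.282. Amy2a5 was thus bright, with a rank of 1071 by mean level, but its other probes averaged 4.62 (1 array) and 4.43 (0 arrays). The other Cela1 probe averaged 4.4 (0 arrays). Extraocular muscle genes were detected for 2 of 8 (Acta1 at 6.87 ± 0.642 and Mylpf at 5.65 ± 0.523), and Myh1, Myh4, Tnnt3 and Ckm were detected on 0 arrays. Of 7 genes of sclera and choroid fibroblasts, 3 were detected (Ogn at 7.09 ± 0.333, Dcn at 5.61 ± 0.598 and Fmod at 5.41 ± 0.345), and Col3a1 and Lum were detected on 0. Of 6 myelin genes, 4 were detected (Mbp at 7.78 ± 0.181, Cnp at 7.29 ± 0.37, Mag at 5.27 ± 0.45 and Mal at 5.07 ± 0.243), and Mog was detected on 0. Apart from the myelin list (66.7%), these lists lay below the share over all named genes, and at a detection p under 0.01 the myelin count fell to 2 of 6.

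Other tissues of the eye were represented to different degrees. Ciliary body and iris genes were detected for 7 of 8, with Col18a1 at 10.99 ± 0.136, Aqp1 at 10.45 ± 0.279, Wfdc1 at 8.96 ± 0.162 and Optc at 7.74 ± 0.0189, and none differed by 1 between arrays. Pigment epithelium and melanosome genes were detected for 9 of 14. Ttr averaged 10.69 ± 0.22, Dct 9.48 ± 0.0635, Rdh5 8.21 ± 0.45 and Pmel 8.03 ± 0.242, whereas Rpe65, the isomerase of the visual cycle that defines pigment epithelium, had 5.39, 5.08 and 5 and Mitf was detected on 0 arrays. Stra6 had 5.27, 6.02 and 7.02.

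Lens transcripts differed most between the arrays. The median of 20 lens genes was 7.51, 5.02 and 7.19 in replicates 1, 2 and 3, a difference of -2.33 between replicate 2 and the median of the other arrays, and replicate 2 was lowest for 17 of the 20 genes, where it was lowest for 25.7% of all named genes. Cryba1, a structural crystallin of the lens, had 10.39, 7.63 and 10.63, and its other probe had 8.42, 5.65 and 8.61. Crygs had 10.09, 7.15 and 10.22, Crygd 10.18, 6.31 and 9.77, and Crygb 9.27, 5.22 and 8.22. Cryba4 had 9.53, 6.86 and 9.87, Cryba2 9.84, 7.35 and 9.86, and Crybb3 9.33, 7.39 and 9.21. Gja3 was detected on 0 arrays. Cryab, the small heat shock protein that retina and other tissues also make, had 7.98, 7.92 and 8.43 and did not share the gap. Of the 20 genes, 10 were detected on all 3 arrays, near the background share, and 16 were detected on both replicates 1 and 3 when replicate 2 was left out. The lens motif of MAF factors is related to the NRL site. TGCTGA was in 63.2% of lens promoters (12 of 19, exact 95% interval 38.4% to 83.7%), against 16.1% of all promoters. The interval takes promoters as independent, which those of related crystallin genes may not be. A match is not a shown binding site, and a role of the motif was not tested.

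The 2 brightest corneal genes were highest where lens genes were lowest. Krt12, the keratin of corneal epithelium, had 6.42, 9.4 and 5.83, and its other probe had 6.13, 9.09 and 5.63. Aldh3a1, an abundant enzyme of the cornea, had 6.32, 8.69 and 4.83. Both were highest in replicate 2, as were 4 of the 6 corneal genes and 35.2% of all named genes, but the list medians of replicates 1 and 2 were close (5.78 and 5.99). The corneal list was lowest in replicate 3 for 6 of 6 genes, against 44.1% of all named genes, and its median there differed from the other arrays by -1.09. Of the 6 genes, 4 were detected, and 2 at a detection p under 0.01. Krt15 averaged 5.86 ± 0.395 and Krt14 5.37 ± 0.588, and Kera was detected on 0 arrays.

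Red blood cell genes followed another order. Hba-a1, an alpha globin, had 12.47, 11.74 and 13.23, and the beta globins Hbb-bs and Hbb-bt had 13.14, 12.41 and 13.71, and 12.72, 11.99 and 13.15. Globin genes are near-identical copies, so a probe may read more than 1 of them. Alas2, the heme enzyme of red cells, had 5.61, 5.1 and 6.67. Slc4a1 had 5.56, 5.68 and 6.01, Bpgm had 5.29, 5.04 and 5.13, and Hbb-b2 was detected on 0 arrays. Of 7 genes, 6 were highest in replicate 3 (28.2% of all named genes) and 6 lowest in replicate 2 (25.7%). Both counts include Hbb-b2, which lay at background with a range of 0.02. The count for replicate 2 also includes the dim Bpgm, with a range of 0.25. The list median was 1.03 higher in replicate 3 than in the other arrays. That median fell on dim genes and not on the globins: Alas2 in replicates 1 and 3, and Slc4a1 in replicate 2. Whether the share of lens, cornea or blood in a sample set these differences was not tested.

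**Figure D4:**
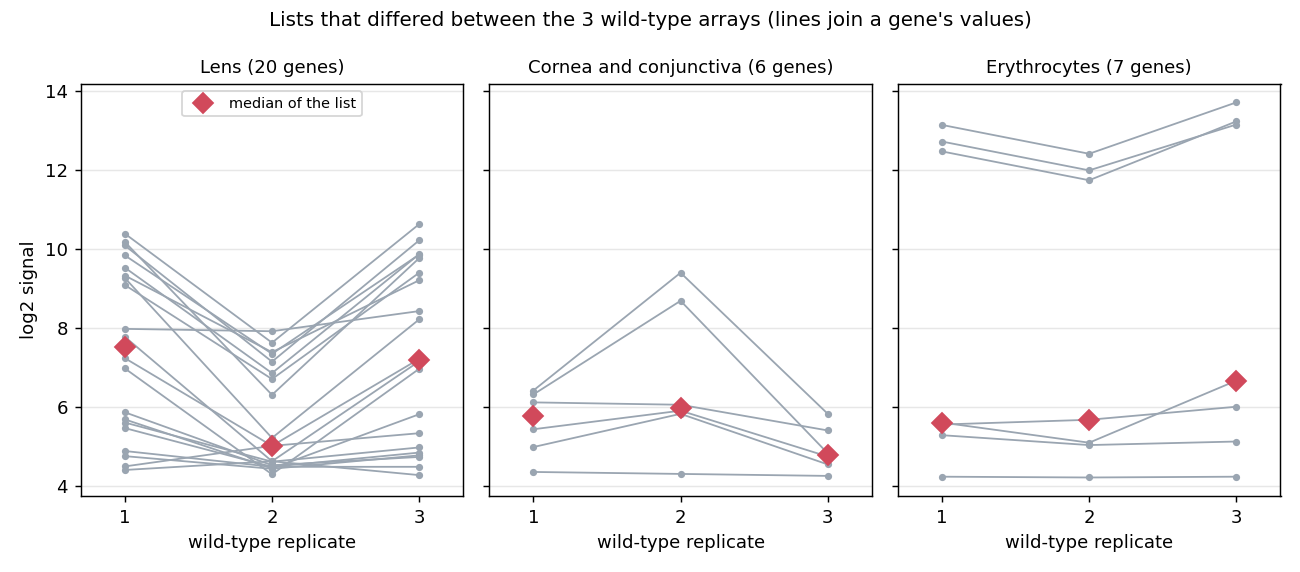
Log2 signal of lens, cornea and erythrocyte genes on the 3 wild-type arrays; each line joins 1 gene's values and diamonds are list medians, and replicate numbers only name the arrays. Lens genes are low in replicate 2, Krt12 and Aldh3a1 are high there, and globins are highest in replicate 3.

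Over all genes the arrays lay close together. Among 9861 genes whose probe was detected on all 3 arrays, the median SD was 0.251 and the 90th percentile 0.523. The arrays differed by at least 1 log2 unit in 955 genes (9.68%) and by at least 2 in 71. Of the 955, replicate 3 was the array farthest from the middle value in 320 genes where it was high and 301 where it was low. Replicate 2 was low in 155 and high in 22, and replicate 1 low in 126 and high in 31. Set against all 9861 genes, replicate 3 high (33.5% of the 955, 13.9% of all) and replicate 2 low (16.2% and 8.69%) had larger shares, while replicate 3 low (31.5% and 36.2%) and replicate 1 low (13.2% and 14.1%) did not. Without replicate 3 the count was 168, without replicate 1 it was 511, and without replicate 2 it was 642, partly because fewer arrays give smaller ranges. Spread depended on level. With the genes split into 4 groups of like size by level, 15% of those between 6.4 and 7.93 differed by at least 1, and 4.62% of the brightest group, above 9.53.

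**Figure D5:**
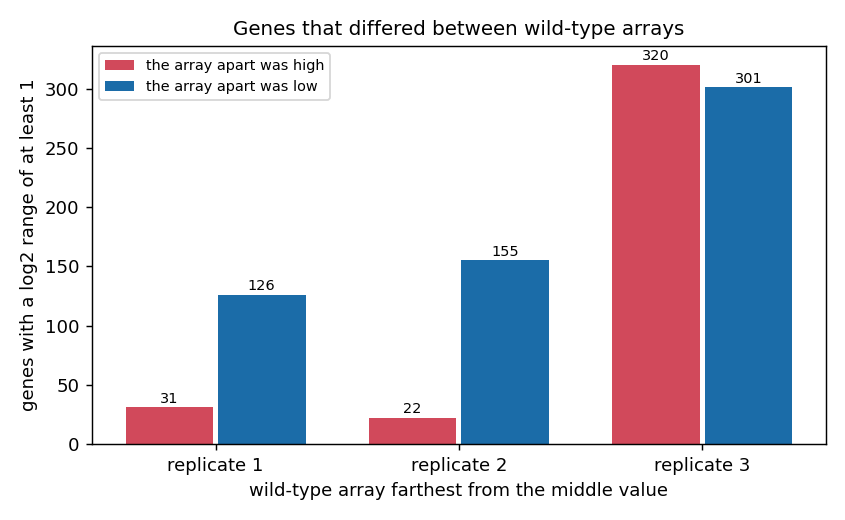
Number of genes whose 3 wild-type arrays differed by at least 1 log2 unit, by the array farthest from the middle value and whether it was high or low. Replicate 3 accounts for 320 high and 301 low genes, and replicates 1 and 2 are mostly low where they stand apart.

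Among genes detected on all 3 arrays, the widest range was that of Hnrnpa2b1, an RNA-binding protein of splicing and transport, with 9.02, 6.35 and 10.45. Calr, a chaperone of the endoplasmic reticulum, had 8, 5.8 and 9.56, Ddx5, an RNA helicase, had 7.13, 5.04 and 8.14, and Dynll2, a dynein light chain, had 8.66, 6.66 and 9.81. These genes, like Hif1a, were lowest in replicate 2 and highest in replicate 3. In each of them the other probes were near background or nearly level, so that the spread rests on 1 probe a gene. The other 7 of the 12 widest ranges among these genes were the lens and cornea genes Crygb, Crygd, Aldh3a1, Krt12, Crygs, Cryba4 and Cryba1.

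Some families were chosen after their spread was seen. Of 13 crystallin genes detected on all 3 arrays, 10 differed by at least 1, each with replicate 2 low. Of 17 heterogeneous nuclear ribonucleoprotein genes, 5 did (Hnrnpa2b1, Hnrnpf, Hnrnph1, Hnrnph3 and Hnrnpk), again each with replicate 2 low. Among all 9861 genes, 955 (9.68%) differed by at least 1, and replicate 2 was the low array apart in 155 of them. Of the 17 ribonucleoprotein genes, 9 were lowest in replicate 2, where 19.2% of the 9861 genes were lowest. Of 72 mitochondrial ribosomal protein genes, 59 (81.9%) were lowest in replicate 3, with a median difference of -0.38 from the other arrays. Over all 9861 genes, 52.9% were lowest there and the median difference was -0.15. Of 59 cytosolic ribosomal protein genes, 35 (59.3%) were lowest in replicate 3, with a median difference of -0.16, close to the values over all genes. Among the 442 other detected probes of the 955 genes, 140 (31.7%) also differed by at least 1, against 718 of 4528 (15.9%) of the other probes of all genes, and 206 (46.6%) placed the same array apart in the same direction, against 30.3% of those 4528 probes.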

How the data were processed

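RNA of mouse retina was hybridised to Illumina BeadChips, 1 colour and 1 array per sample, after extraction with the RNeasy Mini Kit and biotin labelling with the TotalPrep kit, per the labels' protocols. Arrays were read with GenomeStudio per the submitters' processing notes (version not given in the sources used here). For each array the authors deposited raw probe intensity (linear) and a detection p-value, as the file headers show. Their deposited normalized intensity equals the raw intensity minus 1 constant per array (69.1, 68.4 and 59.1 for replicates 1, 2 and 3), without scaling, and the deposited values of the whole series differ from it by 0.

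All 6 arrays were background-corrected and normalized together with neqc of limma 3.58.1 in R 4.3.3 (offset 16, quantile normalization, log2), and the 3 wild-type arrays were then described with pandas 2.3.3 in Python 3.11.15. Quantile normalization takes away differences between arrays that touch all probes. Gene names came from the platform's annotation: 34885 probes had 1 symbol, 18 several and 10378 none, and 34807 matched the RefSeq gene table (GRCm38.p6) by identifier. The probe with the highest mean stood for a gene. Detection means p under 0.05. Promoters are from RefSeq's table of the same build. The members and 30 gene lists were chosen with earlier results of these data known. Genes were named by rule, though not every gene it covers is named. The rule took the 12 brightest, the 12 with the largest range, and up to 6 members per list with the highest mean. It also took list members detected on 0 arrays where 6 or fewer, and a fixed set (Vldlr, opsins, Gfap, Vegfa, Xist and the Y-linked genes). Further members were named after their values were seen, for their range or their role. With 1 group of 3 arrays there was no comparison between groups and no statistical test, and the number of arrays limits the precision. The counting of genes by range was tested on simulated data. Alternatives were other normalizations, an offset of 50, a detection p of 0.01, 2 of 3 arrays, other rules for probes, and each array left out.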

Additional observations from a re-analysis of the deposited data

How the results depend on the processing

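The count of detected genes (9876) and of detected list members (241 in all) stayed within 1.5 times under each alternative run, with 10076 to 10328 genes and 245 to 251 members when 1 array was left out. Among single lists, lens had 17 genes on at least 2 arrays and 16 without replicate 2, against 10, and cornea and myelin fell to 2 genes each at a detection p under 0.01, against 4. The median level of detected genes was 7.93, 8.18 with quantile normalization of raw signal (no background correction and no offset) and 8.12 with an offset of 50. The count of genes that differed by at least 1 log2 unit depended most on processing: 955 as reported, 437 with quantile normalization of raw signal, 504 with an offset of 50, 1673 with the authors' subtracted values, and 168 to 642 with 1 array left out. An offset shrinks differences of dim probes by construction. The lowest correlation between arrays was 0.977, and 0.958 over probes detected on all 3 arrays. The share of rod promoters with TAATCC was 53.8%, and 23.1% on the forward strand. The low lens median of replicate 2 (-2.33) kept its sign under 4 alternatives, from -1.40 to -3.14. The microglial difference of replicate 3 (-0.16) turned to 0.16 with the authors' subtracted values. Over all 30 lists and 3 arrays, 15 of 90 such differences turned sign with those values and 24 of 90 when only members detected on all 3 arrays were kept. The difference of a list's median between arrays is therefore given only for lens, cornea, red blood cells and microglia. These lists were not picked by a stable sign, since the microglial difference turned too. For cornea, red blood cells and microglia together, 9 checks stayed within the median SD of the list's genes. In 2 checks the difference moved by more without turning, and in 1 it turned sign. The median rod rank was 508.5, and 447 to 628 with 1 array left out. No paired analysis was possible because no comparison between groups was made. Signal near background limits all statements on genes detected on 0 arrays.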
